A study of Mus musculus with 2 samples.

Results

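Matrix metalloproteinases (Mmp), the ADAMTS proteases (a disintegrin and metalloproteinase with thrombospondin motifs), the ADAMTS-like proteins (Adamtsl) and the tissue inhibitors of metalloproteinases (Timp) were examined in the heart transcriptome of mice that lack the Mediator subunit Med1 in cardiomyocytes. Members were chosen by symbol alone, as every gene named Mmp, Adamts, Adamtsl or Timp followed by a number and an optional letter, which gave 51 of the 22882 gene symbols in the data. They were 23 Mmp, 19 Adamts, 5 Adamtsl and 4 Timp genes, and each stood on 1 row. RNA was taken from whole hearts of mixed-sex C57BL6/J mice at 23 days of age. The control group was Med1fl/fl, in which both Med1 alleles carry loxP sites, and the knockout group was csMed1-/-, the same floxed alleles combined with a Cre transgene driven by the α-myosin heavy chain promoter. The knockout mice therefore carry the transgene as well as the deletion, and these cannot be told apart here, because the label and the methods describe the controls as floxed animals only.

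RNA of 5 hearts per genotype was pooled before sequencing, so there is 1 library for each genotype. No difference below has a replicate or a test, and the spread between hearts or between pools cannot be estimated from these values. The unit is FPKM, the number of fragments per kilobase of transcript scaled to the mapped fragments of the library, which is a level per length and can be compared between genes. Med1, the deleted gene, was at 3.38 FPKM in Med1fl/fl and at 0.412 in csMed1-/- heart, so the library labelled csMed1-/- had the lower level. Low values moved in steps that gave the FPKM of about 1 read in each library. Read numbers quoted as "about" below are estimates from these steps and from GENCODE M21 transcript lengths. By the same steps the csMed1-/- library was about 1.34 times as deep as the control, and the read numbers are not scaled for this.

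These families act on the extracellular matrix. Mmp proteins are zinc-dependent proteases that are made as inactive precursors and cleave collagens, gelatins and other matrix proteins, and ADAMTS proteins cleave proteoglycans, trim procollagens or act on single glycoproteins. ADAMTS-like proteins share the thrombospondin repeats but have no protease domain, and Timp proteins bind the active site of the proteases and block it. In the heart these genes are best known from cardiac fibroblasts, endothelium and invading leukocytes, and from the matrix remodelling that goes with dilatation and fibrosis.

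Of the 4 inhibitors, 3 were higher past 2-fold in csMed1-/- heart and 0 were lower. Among the 3 ADAMTS-like genes at 1 FPKM or more in both libraries, 2 were higher and 0 were lower. The Mmp and Adamts genes at that level went both ways, with 1 and 2 higher and 1 and 2 lower. Of all 9160 genes at that level, 11.3% were higher and 14.7% were lower. Summed over each family, Timp transcripts were at 134 FPKM in Med1fl/fl and 485 in csMed1-/- heart (ratio 3.62), and Adamtsl transcripts were at 111 and 487 FPKM (ratio 4.38), the latter made up almost wholly of Adamtsl2 and Adamtsl5 in csMed1-/- heart. The Adamts sum was 45.3 FPKM in the control pool and 83.7 in the knockout pool (ratio 1.85), and the Mmp sum was 222 and 255 FPKM (ratio 1.15). The summed Timp level was thus 0.604 of the summed Mmp level in the control library and 1.90 times that level in the csMed1-/- library. The Mmp sum hid a change of makeup, described below, in which Mmp15 was lower and Mmp23 higher.

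**Figure D1:**
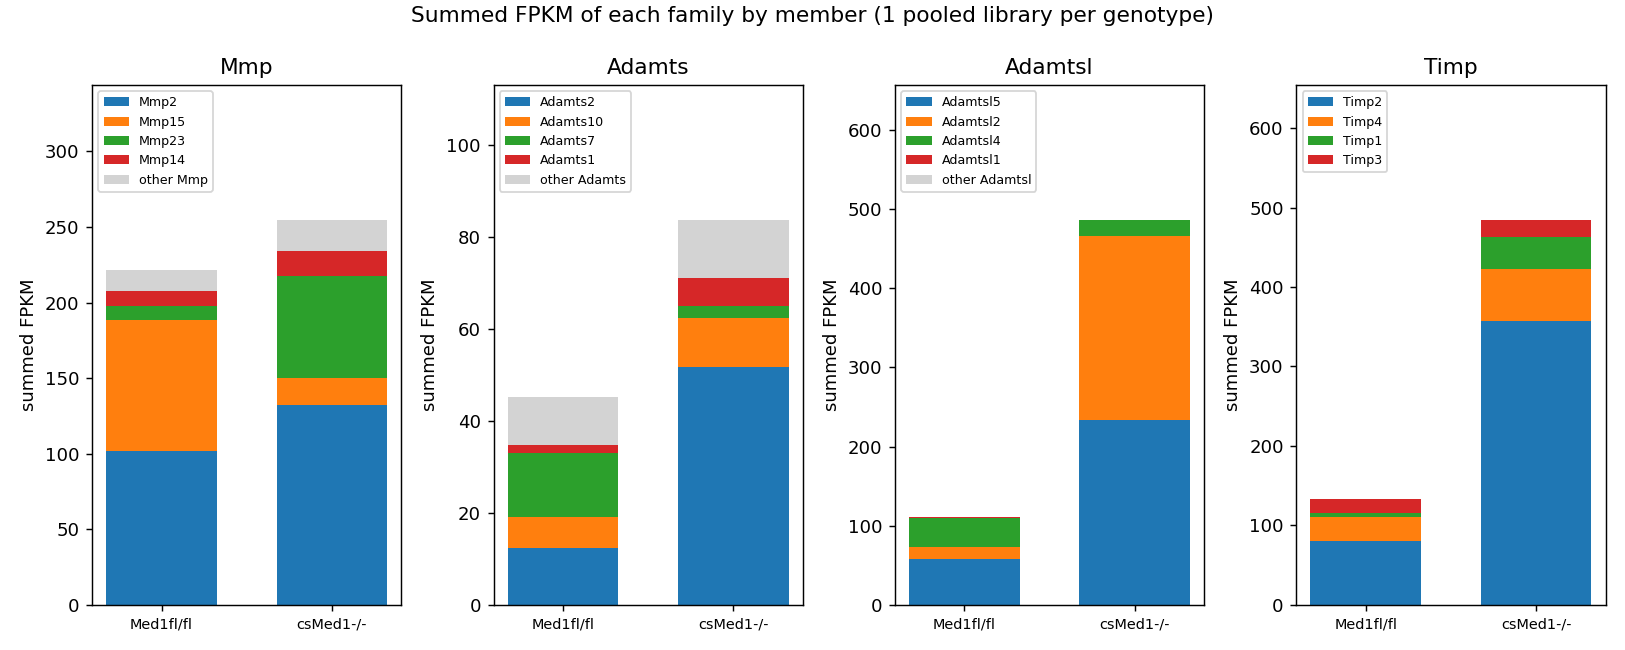
Summed FPKM (linear axis from 0, a separate scale in each panel) of the Mmp, Adamts, Adamtsl and Timp families in the Med1fl/fl and csMed1-/- libraries, with the 4 most abundant members coloured and the rest in grey. The Timp bar stands at 134 and 485 FPKM and the Mmp bar at 222 and 255, with Mmp15 shrinking and Mmp23 growing inside it.

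Of the 51 members, 25 reached 1 FPKM in at least 1 library and were above 0 in both, which was the filter for giving a ratio. Among these 25, 12 were higher past 2-fold in csMed1-/- heart, 3 were lower past 2-fold and 10 lay within 2-fold. Of all 10489 genes that met the same filter, 13.6% were higher and 18.0% were lower past 2-fold. The median log2 ratio was 0.93 over the 25 members and -0.07 over all genes. The filter favours genes that are high in either library, and 5 members (Adamts4, Adamts5, Adamts8, Adamts14 and Mmp3) passed it only through their csMed1-/- value, so these counts describe the members and support no statement about them. With 1 FPKM required in both libraries, 8 of 20 members were higher and 3 were lower, against 11.3% and 14.7% of 9160 genes.

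**Figure D2:**
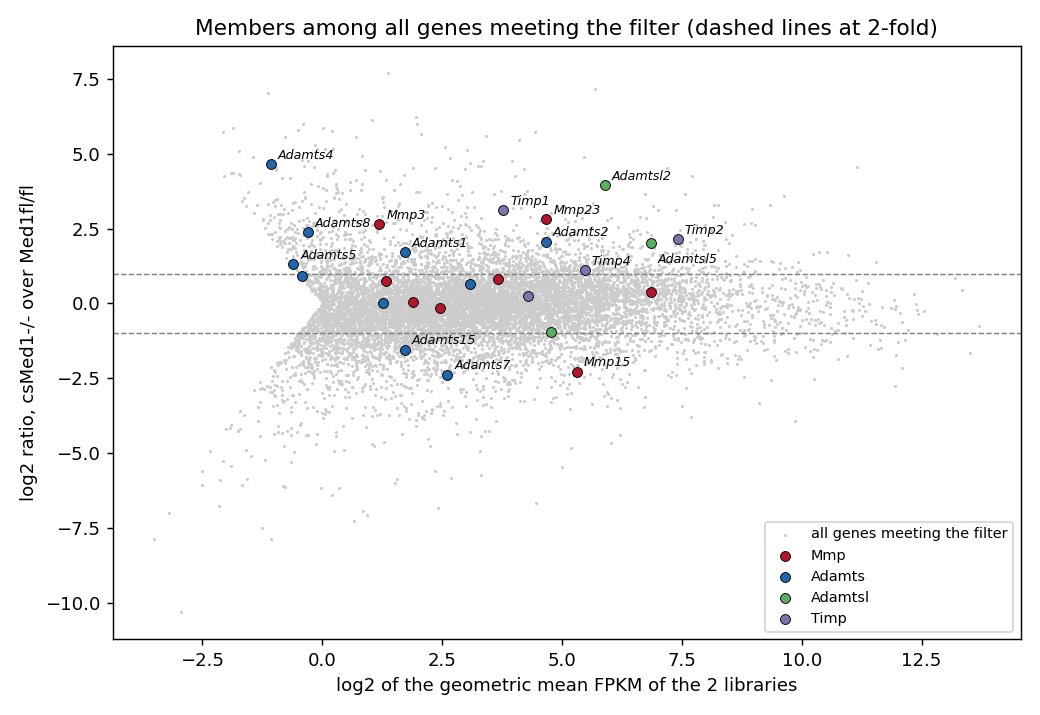
Log2 ratio of csMed1-/- over Med1fl/fl FPKM against the log2 geometric mean FPKM for all 10489 genes that met the filter (grey) and the 25 members (coloured by family), with labels on the 15 members past 2-fold. Adamts4 and Adamtsl2 stand highest among the members, and Mmp15, Adamts7 and Adamts15 are the members below the lower dashed line.

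All 4 inhibitors were at 1 FPKM or more in both libraries, and 3 of them were higher past 2-fold in csMed1-/- heart. Of all 9160 genes at that level in both libraries, 11.3% were higher. Timp1 (chrX:20870166-20874735, plus strand), the inducible inhibitor that is low in most healthy tissues, was at 4.65 FPKM in Med1fl/fl and 40.3 in csMed1-/- heart, a ratio of 8.66. Timp2 (chr11:118301069-118355740, minus strand), which also takes part in the activation of pro-Mmp2 by Mmp14, was at 80.9 and 358 FPKM, a ratio of 4.42. In csMed1-/- heart Timp2 was the most abundant of all 51 members. Timp4 (chr6:115241892-115252205, minus strand), the member with the most restricted expression and a high level in heart, was at 30.2 and 65.4 FPKM, a ratio of 2.17 that lies just past the threshold. Timp3 (chr10:86300372-86349506, plus strand), which binds to the matrix and also inhibits ADAMTS and ADAM proteases, was at 18.0 and 21.4 FPKM (ratio 1.19), within 2-fold.

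The makeup of the inhibitor pool differed with these changes. Timp2 made up 60.5% of the summed Timp FPKM in the control pool and 73.8% in the knockout pool, and Timp1 made up 3.48% and 8.31%. The share of Timp3 was 13.5% in the control pool and 4.41% in the knockout pool, although its own level was not lower. The share of Timp4 was 22.6% and 13.5%. By level the order was Timp2, Timp4, Timp3, Timp1 in control and Timp2, Timp4, Timp1, Timp3 in csMed1-/- heart. Timp1, Timp3 and Timp4 each lie inside a synapsin gene on the opposite strand, a nested arrangement that the annotation shows for Syn1, Syn3 and Syn2. The host genes were far lower than the inhibitors, with Syn1 at 0.552 and 0.350 FPKM, Syn3 at 0.0688 and 0.0427 FPKM, and Syn2 at 1.03 and 1.32 FPKM.

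**Figure D3:**
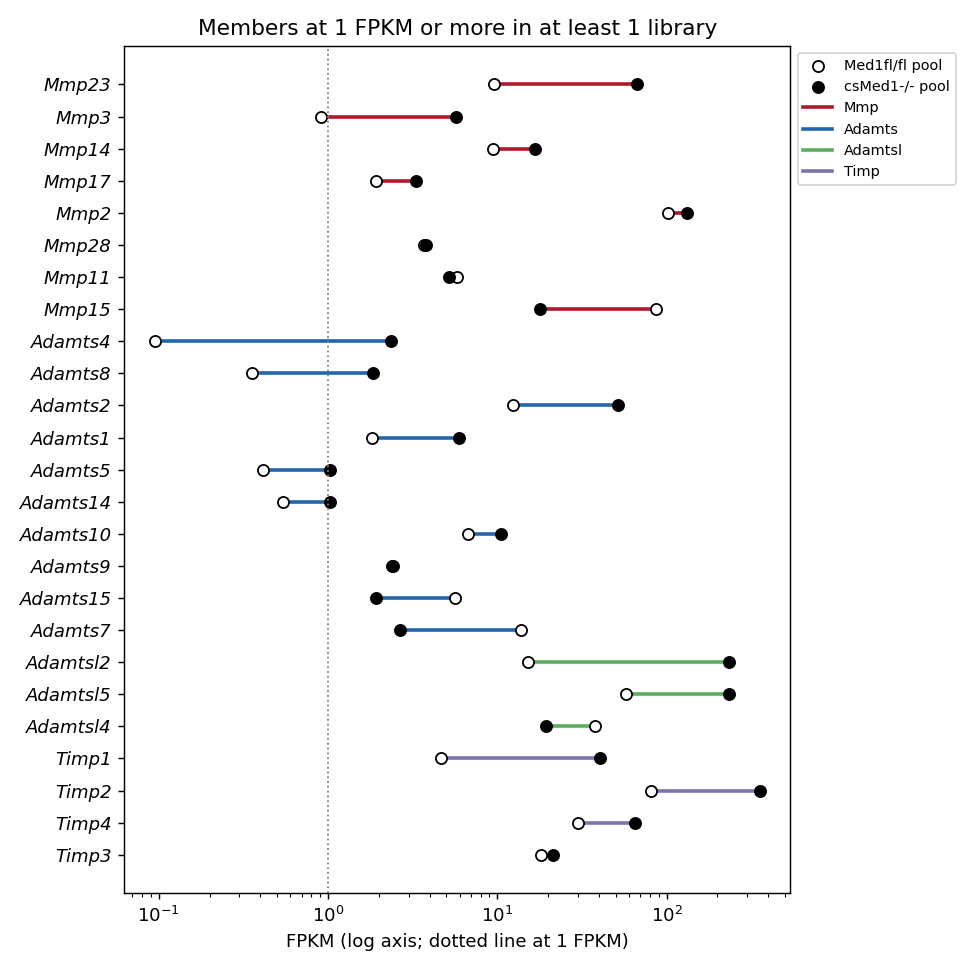
FPKM (log axis) in the Med1fl/fl library (open circles) and the csMed1-/- library (filled circles) for the 25 members at 1 FPKM or more in at least 1 library, grouped by family and ordered by ratio. Adamts4 spans the widest interval, from 0.0947 to 2.37 FPKM, and filled circles lie left of open ones for Mmp15, Mmp11, Adamts15, Adamts7 and Adamtsl4.

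Among the ADAMTS-like genes, Adamtsl2 and Adamtsl5 were higher and Adamtsl4 was lower without passing the threshold. Adamtsl2 (chr2:27079379-27108981, plus strand), whose product binds fibrillin and a latent TGF-β binding protein, was at 15.2 FPKM in Med1fl/fl and 233 in csMed1-/- heart, a ratio of 15.4. This was the largest ratio of any member at 1 FPKM or more in both libraries, and it ranked 75 among the 10489 genes that met the filter. Adamtsl5 (chr10:80339110-80348412, minus strand), also a microfibril-associated protein, was at 57.4 and 233 FPKM, a ratio of 4.06. In csMed1-/- heart these 2 genes had about equal levels and were the most abundant members after Timp2. Adamtsl4 (chr3:95676201-95687917, minus strand), known for its role in the fibrillin fibres that hold the lens, was at 37.7 and 19.6 FPKM, a ratio of 0.519. Adamtsl1 (0.359 and 0.238 FPKM) and Adamtsl3 (0.414 and 0.139 FPKM) stayed under 1 FPKM in both libraries.

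The partners of these proteins were also measured. Fbn1, the main fibrillin of microfibrils, was at 9.63 FPKM in the control pool and 36.1 in the knockout pool (ratio 3.74), and Fbn2, the fibrillin of developing tissue, was at 0.201 and 1.59 FPKM (ratio 7.93). Ltbp1, a latent TGF-β binding protein, was at 9.66 and 5.02 FPKM (ratio 0.519), on the lower side but within 2-fold. Adamts10 (chr17:33524204-33553782, plus strand), the ADAMTS protease that associates with fibrillin, was at 6.75 and 10.5 FPKM (ratio 1.56). Within this group the fibrillins and 2 of the ADAMTS-like genes were higher past 2-fold, and Ltbp1, Adamts10 and Adamtsl4 were not. Fbn2 met the filter only through its csMed1-/- value, and 13.6% of all genes that met it were higher past 2-fold.

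Adamts2 was the most abundant ADAMTS protease in csMed1-/- heart. Adamts2 (chr11:50602084-50807573, plus strand), the enzyme that removes the amino-terminal propeptide of fibrillar procollagens, was at 12.4 FPKM in Med1fl/fl and 51.8 in csMed1-/- heart, a ratio of 4.18. It made up 27.4% of the summed Adamts FPKM in the control pool and 61.9% in the knockout pool. The other procollagen N-propeptidases were low, with Adamts14 at 0.544 and 1.03 FPKM (ratio 1.90) and Adamts3 at 0.404 and 0.613 FPKM (ratio 1.52), both within 2-fold. Their substrates include Col1a1, at 130 FPKM in the control pool and 502 in the knockout pool (ratio 3.87), and Col3a1, at 139 and 220 FPKM (ratio 1.58). Bmp1, the protease that removes the opposite propeptide of the same procollagens, was at 20.6 and 48.9 FPKM (ratio 2.37). Its enhancer protein Pcolce was at 97.5 and 268 FPKM (ratio 2.75), and Pcolce2 was at 13.9 and 25.1 FPKM (ratio 1.81). Adamts2, Bmp1 and Pcolce were thus higher past 2-fold, and Adamts3, Adamts14 and Pcolce2 were not. Among all genes that met the filter, 13.6% were higher past 2-fold.

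The proteoglycan-cleaving ADAMTS genes were low in both libraries and differed in both directions. Of 7 genes in this class, 6 met the filter, 4 were higher past 2-fold and 1 was lower, beside 13.6% and 18.0% of all genes. Of the 4 that were higher, 3 (Adamts4, Adamts5 and Adamts8) met the filter only through their csMed1-/- value. With 1 FPKM in both libraries the class held 1 higher gene (Adamts1), 1 lower gene (Adamts15) and 1 within 2-fold (Adamts9), beside 11.3% and 14.7% of all genes. Adamts4 (chr1:171250421-171260637, plus strand), known as aggrecanase 1, was at 0.0947 FPKM in the control pool and 2.37 in the knockout pool, a log2 ratio of 4.64 that ranked 35 among the 10489 genes. Its control value stands for about 26 reads and its csMed1-/- value for about 862. Adamts8 was at 0.355 and 1.85 FPKM (ratio 5.22), and Adamts1, an early-response protease that cleaves versican, was at 1.82 and 5.93 FPKM (ratio 3.25). Adamts5, aggrecanase 2, was at 0.416 and 1.04 FPKM (ratio 2.49), and Adamts9 was level at 2.40 and 2.44 FPKM (ratio 1.02). Adamts15 was the exception, with 5.63 FPKM in the control pool and 1.92 in the knockout pool (ratio 0.342). Versican, encoded by Vcan and a main substrate of this class in the heart, was at 0.356 and 1.29 FPKM (ratio 3.63).

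Pairs of ADAMTS genes that lie side by side were compared because shared position need not mean shared direction. Adamts1 (chr16:85793827-85803113) and Adamts5 (chr16:85856173-85901828) lie 53.1 kb apart on the minus strand, and both were higher past 2-fold. Adamts15 (chr9:30899155-30922452, minus strand) and Adamts8 (chr9:30942562-30963838, plus strand) lie 20.1 kb apart and are transcribed away from each other, and Adamts15 was lower while Adamts8 was higher. Adamts13, the protease of von Willebrand factor, lies 69.8 kb before Adamtsl2 on chromosome 2 and was listed at 0 in both libraries. Its substrate gene Vwf was at 15.3 FPKM in the control pool and 55.4 in the knockout pool (ratio 3.61).

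Adamts7 was the most abundant ADAMTS protease in control heart and among the lowest ratios of the members. Adamts7 (chr9:90163069-90208071, plus strand), which cleaves cartilage oligomeric matrix protein and is known from vascular smooth muscle, was at 13.8 FPKM in Med1fl/fl and 2.67 in csMed1-/- heart, a ratio of 0.193. It made up 30.6% of the summed Adamts FPKM in the control pool and 3.20% in the knockout pool. Adamts12, its closest relative by substrate, was at 0.191 and 0.0763 FPKM, both under 1 FPKM. Adamts7 overlaps Tbc1d2b on the opposite strand by 6045 bases, and Tbc1d2b was also lower in csMed1-/- heart, at 7.09 and 3.38 FPKM. The substrate gene Comp was at 3.64 and 9.98 FPKM (ratio 2.74), the opposite direction to the protease.

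Mmp2 was the most abundant metalloproteinase of both hearts and differed little. Mmp2 (chr8:92827291-92853420, plus strand), gelatinase A, was at 102 FPKM in Med1fl/fl and 132 in csMed1-/- heart, a ratio of 1.30. Mmp9, gelatinase B and a product of neutrophils and macrophages, was at 0.269 and 0.819 FPKM and stayed under 1 FPKM. Mmp14 (chr14:54431612-54445364, plus strand), the membrane-type protease that activates pro-Mmp2, was at 9.47 and 16.8 FPKM (ratio 1.77). Of the genes of pro-Mmp2 activation, Mmp2 and Mmp14 thus lay within 2-fold and Timp2 was past it. Reck, a membrane-anchored inhibitor of the same proteases, was at 1.94 and 1.73 FPKM (ratio 0.891).

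Among the Mmp genes the shares of Mmp15 and Mmp23 differed most between the libraries. Mmp15 (chr8:95352268-95375080, plus strand), a membrane-type protease, was at 87.0 FPKM in Med1fl/fl and 18.0 in csMed1-/- heart, a ratio of 0.207. It made up 39.3% of the summed Mmp FPKM in the control pool and 7.06% in the knockout pool. Mmp23 (chr4:155650655-155653384, minus strand), a type II membrane protease without the usual carboxy-terminal hemopexin domain, was at 9.60 and 67.3 FPKM, a ratio of 7.01. Its share of the Mmp sum was 4.33% in the control pool and 26.4% in the knockout pool, so that it took the place of Mmp15 as the second most abundant Mmp transcript. The summed level of the 6 membrane-type genes was 98.7 and 38.8 FPKM (ratio 0.393), and it was mostly Mmp15 in control. Of the other membrane-type genes, Mmp14 and Mmp17 (1.94 and 3.29 FPKM, ratio 1.70) were on the higher side within 2-fold. Mmp16 and Mmp25 were lower and Mmp24 was higher past 2-fold, all 3 under 1 FPKM in both libraries. Mmp11, stromelysin 3, was at 5.82 and 5.21 FPKM (ratio 0.895), and Mmp28, epilysin, was at 3.68 and 3.81 FPKM (ratio 1.03). Mmp11 overlaps Chchd10 on the opposite strand by 3367 bases, and Chchd10 was at 2232 and 953 FPKM. Mmp28 overlaps 1700020L24Rik on the opposite strand by 466 bases.

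Mmp3, stromelysin 1, cleaves many matrix proteins and activates other pro-Mmp enzymes. It was at 0.910 FPKM in Med1fl/fl, for which about 95 reads stand, and at 5.70 in csMed1-/- heart, for which about 793 stand, a ratio of 6.26. Mmp3 (chr9:7445822-7455975, plus strand) lies in a run of 10 Mmp genes that spans 427 kb of chromosome 9 and holds no other annotated coding gene. It was the only gene of this run at 1 FPKM or more in either library. In order of position the run holds Mmp13, Mmp12, Mmp1b, Mmp3, Mmp1a, Mmp10, Mmp8, Mmp27, Mmp20 and Mmp7. Mmp10, stromelysin 2 and the closest relative of Mmp3, was at 0.0371 and 0.194 FPKM, for which about 4 and 26 reads stand. Mmp8, the neutrophil collagenase, was at 0.0271 and 0.0870 FPKM, about 4 and 17 reads. Mmp27 was at 0.00962 and 0.0137 FPKM, about 1 and 2 reads, Mmp13 and Mmp12 were at 0.0107 and 0.00831 FPKM in control (about 2 reads each) and listed at 0 in csMed1-/- heart, and Mmp1a, Mmp1b, Mmp20 and Mmp7 were listed at 0 in both. None of the 4 collagenase genes (Mmp1a, Mmp1b, Mmp8 and Mmp13) therefore reached 0.1 FPKM in either pool. Mmp3 and Mmp10, like Mmp1a and Mmp1b, are similar in sequence, and reads that fit both copies could have been split between them.

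**Figure D4:**
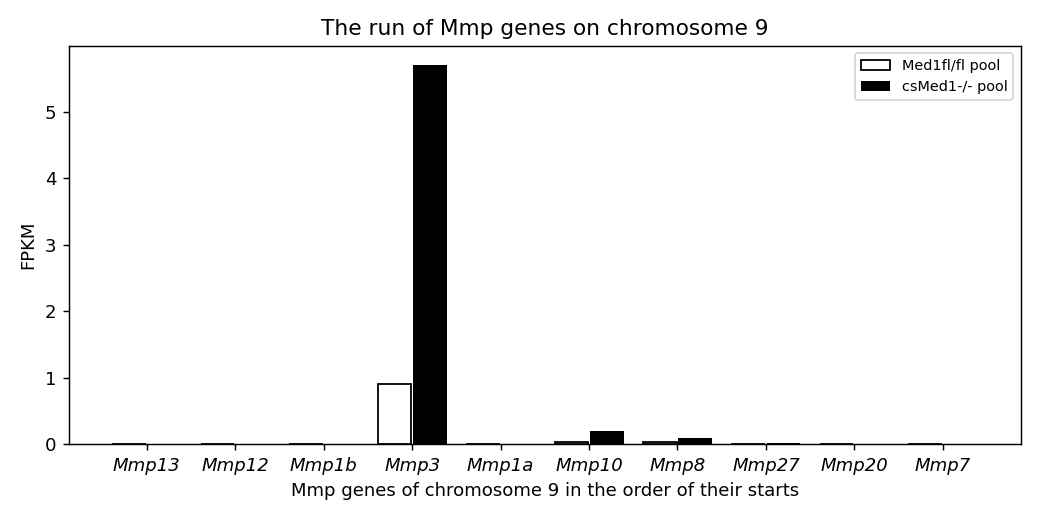
FPKM (linear axis from 0) of the 10 Mmp genes of the chromosome 9 run in the order of their starts, in the Med1fl/fl library (open bars) and the csMed1-/- library (filled bars). Mmp3 stands at 0.910 and 5.70 FPKM, and no other gene of the run exceeds 0.194 FPKM.

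Sequences before the gene starts of this run are shown because 7 of its 10 genes share a feature there, although only Mmp3 reached 1 FPKM. The letters TGACTCA, read on both strands (TGAGTCA is the same site on the other strand), are the site bound by the AP-1 transcription factors, dimers of Fos and Jun proteins. They were searched in the 250 bases before each start in the RefSeq promoters of GRCm38.p6, where 36 of the 51 members matched by symbol. The site was present in 7 of the 10 genes of the run and in 0 of the 26 searched members elsewhere. Of all 27025 genes in that table, 5.16% hold it. The 15 members not in the table, Mmp2, Mmp9 and Adamts4 among them, all lie outside the run and were not searched. The values therefore do not show that the site is particular to the run. Of the 17 searched members that met the filter, 1 held the site (5.88%). The last 120 bases before the start of each of the 7 genes read as follows, 5′ to 3′ on the strand of the gene, with the AP-1 letters in capitals.
Mmp13, chr9:7272394-7272513, plus strand: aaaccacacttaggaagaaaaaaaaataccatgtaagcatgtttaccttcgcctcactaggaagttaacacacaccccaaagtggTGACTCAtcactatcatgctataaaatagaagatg
Mmp12, chr9:7347254-7347373, plus strand: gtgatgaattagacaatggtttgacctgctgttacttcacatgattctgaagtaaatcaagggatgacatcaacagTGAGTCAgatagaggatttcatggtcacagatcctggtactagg
Mmp1b, chr9:7388027-7388146, minus strand: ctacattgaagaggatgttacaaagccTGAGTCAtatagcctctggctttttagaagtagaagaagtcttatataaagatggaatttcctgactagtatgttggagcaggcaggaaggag
Mmp3, chr9:7445702-7445821, plus strand: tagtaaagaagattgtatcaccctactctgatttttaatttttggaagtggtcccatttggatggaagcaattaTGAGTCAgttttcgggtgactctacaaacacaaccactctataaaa
Mmp1a, chr9:7464021-7464140, plus strand: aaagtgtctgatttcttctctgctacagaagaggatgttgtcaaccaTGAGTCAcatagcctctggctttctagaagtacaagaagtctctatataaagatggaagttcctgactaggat
Mmp10, chr9:7502222-7502341, plus strand: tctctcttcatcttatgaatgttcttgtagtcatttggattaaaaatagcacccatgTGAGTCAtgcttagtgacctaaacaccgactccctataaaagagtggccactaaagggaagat
Mmp7, chr9:7691970-7692089, plus strand: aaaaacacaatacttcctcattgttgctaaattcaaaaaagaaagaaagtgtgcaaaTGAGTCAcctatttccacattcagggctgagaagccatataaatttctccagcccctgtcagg
For Mmp12 and Mmp7 the table gives a pair of starts, and the site lies before the start shown. The site began between 35 bases (Mmp13) and 93 bases (Mmp1b) before the start, and 46 bases before it in Mmp3. Of these 7 genes Mmp3 and Mmp10 were higher in csMed1-/- heart, Mmp12 and Mmp13 were at about 2 reads or 0, and the others were listed at 0 in both libraries. A match of letters is a description of the window and does not show binding. Of the AP-1 genes, Fos was at 4.37 and 9.64 FPKM (ratio 2.21), Fosl2 at 5.96 and 14.7 FPKM (ratio 2.46), Junb at 14.5 and 57.7 FPKM (ratio 3.98) and Jun at 15.5 and 15.8 FPKM (ratio 1.02). Of the 7408 genes in the table that met the filter, 4.01% held the site, and of the 962 among them higher past 2-fold, 6.03% held it. No share was taken for the lower genes. Whether AP-1 has a part in any of these levels was not tested.

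The other 26 members did not reach 1 FPKM in either library. The highest of them was Mmp19, at 0.918 and 0.911 FPKM (ratio 0.992). Of these 26, 6 were listed at 0 in both libraries and 3 in 1 of them, and the other 17 were above 0 in both, with 6 higher past 2-fold, 4 lower and 7 within. Of all 15930 genes above 0 in both libraries, whatever their level, 15.7% were higher and 20.0% were lower past 2-fold. These include the 10489 genes that met the filter, so they are not matched in level to the 17. An exact 0 in these files can be a failed estimate and not an absence, since Actc1, the cardiac actin gene, is listed at 0 in the control library and at 9189 FPKM in the csMed1-/- library. The largest ratio of any member was that of Adamts16, at 0.00645 FPKM in the control pool and 0.493 in the knockout pool, but the control value stands for about 2 reads, so the ratio of 76.5 has little precision. Mmp24 was at 0.0257 and 0.593 FPKM (about 7 and 211 reads), and Adamts20 at 0.0692 and 0.503 FPKM (about 30 and 292 reads). Of the remaining low members above 0 in both libraries, Mmp25 (0.219 and 0.0763 FPKM) and Mmp16 (0.0779 and 0.0349 FPKM), both membrane-type proteases, were lower past 2-fold. Adamts17 (0.261 and 0.356 FPKM), Adamts19 (0.0680 and 0.0449 FPKM) and Adamts6 (0.00603 and 0.0109 FPKM) were within 2-fold. Mmp21 was listed at 0 in both libraries, and Adamts18 was at 0.00288 FPKM, about 1 read, in csMed1-/- heart and at 0 in control.

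Genes around the proteases, taken from lists of related function, were read the same way. The shares to set beside the counts below are those of all 10489 genes that met the filter. Of these, 13.6% were higher and 18.0% were lower past 2-fold. In the plasminogen system, Plaur, the urokinase receptor, was at 2.78 and 14.7 FPKM (ratio 5.29). The plasminogen activators lay within 2-fold, with Plat at 8.04 and 8.79 FPKM (ratio 1.09) and Plau at 1.97 and 1.26 FPKM (ratio 0.638). Among 3 other inhibitors and clearance genes, 1 was higher past 2-fold, Lrp1, the receptor that takes up protease and inhibitor complexes, at 24.9 and 57.9 FPKM (ratio 2.33). Of 12 activators and inducers, 7 were higher and 1 was lower past 2-fold, beside 13.6% and 18.0% of all genes. Their median log2 ratio was 1.06. Tgfb2 and Pcsk5 (0.573 and 2.75 FPKM), both among the 7, met the filter only through their csMed1-/- value. Tgfb2 had the highest ratio of that list, from 0.799 to 7.51 FPKM (9.40), and Ets1, a transcription factor of endothelial cells, the lowest, from 4.67 to 1.15 FPKM (0.246). Furin, which cuts the propeptide of membrane-type Mmp proteins, was at 87.9 and 190 FPKM (ratio 2.16). The inflammatory inducers Il1b, Il6 and Tnf did not reach 1 FPKM in either library.

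Related metalloproteinases outside the 4 families were read as well. Of 16 ADAM and astacin proteases, 5 met the filter, with a median log2 ratio of 0.55, and 0 were lower past 2-fold. Against 13.6% of all genes, 2 of the 5 were higher past 2-fold, Bmp1 and Adam9 (1.58 and 4.70 FPKM, ratio 2.98). Adam15, the most abundant of them, was at 80.2 and 117 FPKM (ratio 1.46), and Adam17, the TNF-converting enzyme, was at 1.86 and 2.12 FPKM (ratio 1.14). The substrate lists were read next. Of 18 genes for collagens and glycoproteins, 14 were higher past 2-fold and 0 were lower, beside 13.6% and 18.0% of all genes. Their median log2 ratio was 1.58. Fbn2 and Thbs1 (0.543 and 3.79 FPKM), both among the 14, met the filter only through their csMed1-/- value. Eln, elastin, had the highest ratio of the 18, from 48.4 to 923 FPKM (19.1), and Ltbp1 the lowest. Fn1, fibronectin, was at 17.1 and 44.4 FPKM (ratio 2.59). Of 5 proteoglycan genes that met the filter, 2 were higher and 1 was lower, beside the same shares of all genes. Vcan, among the 2, met the filter only through its csMed1-/- value. Bgn, biglycan, was at 194 and 1246 FPKM (ratio 6.42), and Lum, lumican, was at 8.04 and 3.72 FPKM (ratio 0.463). Of 7 procollagen processing genes, 1 was higher past 2-fold, Pcolce, against 13.6% of all genes. Serpinh1, the collagen chaperone, had the lowest ratio of the 7, from 358 to 297 FPKM (0.828).

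**Figure D5:**
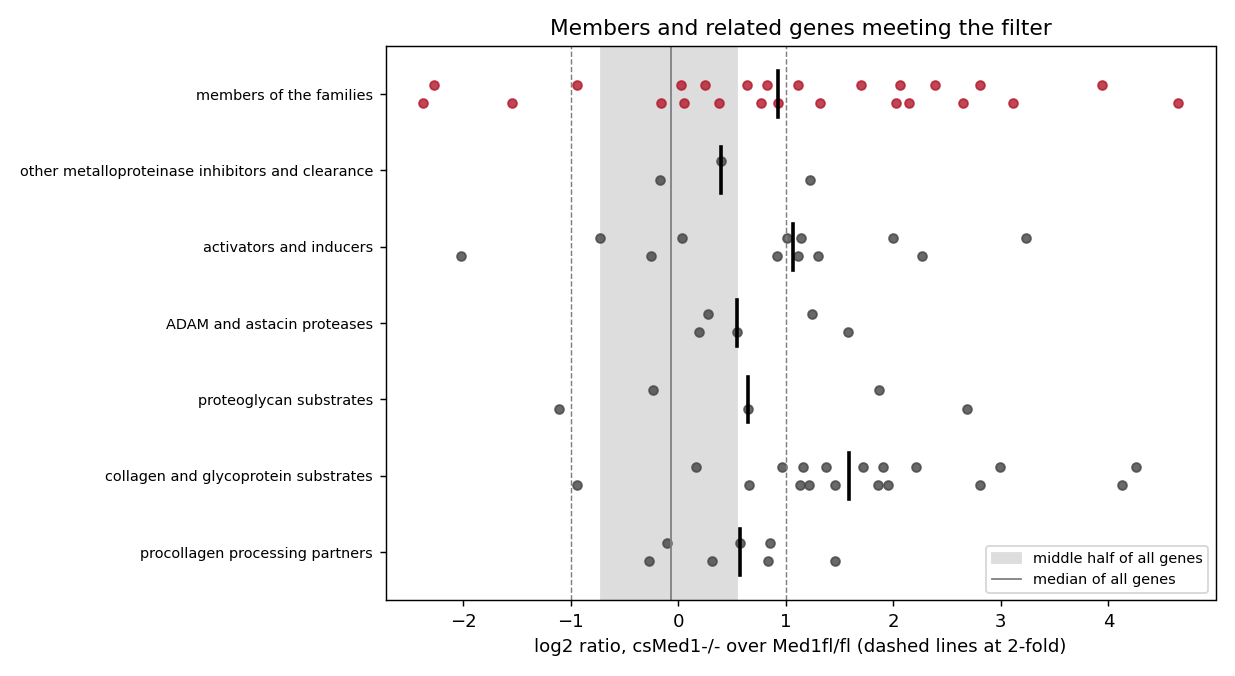
Log2 ratio of csMed1-/- over Med1fl/fl FPKM for the 25 members (red) and for genes of 6 related lists (grey) that met the filter, with the median of each list as a black bar, the middle range of all genes as a shaded band and 2-fold as dashed lines. The members range from -2.37 (Adamts7) to 4.64 (Adamts4), with their median at 0.93, and the collagen and glycoprotein substrates have the highest median, 1.58.

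Whole heart RNA holds many cell types, and fewer cells of a type cannot be told apart from less RNA per cell. Beside the marker counts below, 13.6% of all genes that met the filter were higher and 18.0% were lower past 2-fold. Of 6 fibroblast markers that met the filter, 3 were higher past 2-fold (Tcf21, Col1a1 and Postn) and 1 was lower (Lum), and the summed level of the 7 listed was 269 FPKM in the control pool and 659 in the knockout pool, where Col1a1 made up most of it. Pdgfra, a fibroblast receptor, was level at 4.10 and 4.03 FPKM. Of 6 endothelial markers 0 were higher and 3 were lower, and their sum was 404 and 263 FPKM. Of 5 macrophage markers that met the filter all were within 2-fold, with sums over the 6 measured of 155 and 109 FPKM. The neutrophil markers S100a8 (1.74 and 5.85 FPKM) and S100a9 (1.51 and 3.79 FPKM) were higher past 2-fold. Below the filter, Mpo (0.00899 and 0.0530 FPKM) and Camp (0.133 and 0.561 FPKM) were also higher in csMed1-/- heart, and Elane was listed at 0 in both libraries. The 5 neutrophil markers measured summed to 3.40 and 10.3 FPKM. Smooth muscle and pericyte markers went both ways, with 2 of 6 higher and 1 lower and sums of 675 and 496 FPKM. Among 4 mesothelial markers 2 met the filter and 1 was higher, Krt19 (0.313 and 2.93 FPKM). Krt19 met the filter only through its csMed1-/- value. Of 5 cardiomyocyte markers that met the filter 4 were lower past 2-fold and 0 were higher. The part of these cell types in the values of the proteases and inhibitors was not tested.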

How the data were processed

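Polyadenylated heart RNA, pooled from 5 mice per genotype, was sequenced as directional 50-base single-end reads. Per the methods, the authors aligned reads to mm10 with TopHat (2.0.8b in the submitters' processing notes) and deposited FPKM values of known genes from Cufflinks and Cuffdiff (2.1.1). The notes also list STAR 2.4.0h and Bowtie2 without a role. Library scaling and the use of strand in counting are not given in the sources used here, so overlapping genes could share reads.

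Rows that share a symbol were summed. The plain ratio of csMed1-/- to Med1fl/fl FPKM, with no pseudocount, was read where neither value was 0 and the larger was at least 1 FPKM, and genes past 2-fold were counted. With 1 library per genotype no test was made. Read counts are not given, so the depth could only be estimated. Among single-transcript genes of at least 1000 bases, FPKM times length in kb (less 200 bases) piled up at 0.0154 in control and 0.0115 in csMed1-/-, taken as 1 read. Read numbers from these steps are approximate, since the lengths are not those of the authors' gene models, and no interval was computed.

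Positions are from GENCODE M21 (GRCm38, the assembly of mm10), where all 51 members matched by symbol, and promoters are from RefSeq GRCm38.p6. The members and lists were chosen with earlier results of these data known. Members at 1 FPKM or more in at least 1 library, the highest of the rest, the highest and lowest ratio of each related list and direct partners were named by rule. The other low members, the AP-1 genes, Furin, Bmp1, Adam15, Adam17, Comp, cell type markers and overlapping genes were named after their values were seen. So were Pcsk5, Pcolce2 and Thbs1. Results on some genes are not reported here. The ratio code was tested on simulated data. Python 3.11.15, numpy 2.4.6, pandas 2.3.3 and matplotlib 3.10.9 were used.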

Additional observations from a re-analysis of the deposited data

How the results depend on the processing

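Counts and ratios were recomputed under 10 other settings. None of these settings could have reversed a named ratio past 2-fold. Filters, thresholds and pseudocounts cannot change a direction, each member stands on 1 row, and the scalings moved log2 ratios by little. The settings therefore bear on counts and sizes only. No paired analysis was possible because there is 1 library per genotype, and leaving out a replicate was not possible for the same reason. A pseudocount of 1 FPKM moved the median log2 ratio of the members to 0.57 and brought Adamts5 inside 2-fold (log2 ratio 0.52). With no filter beyond a value above 0 in both libraries, 18 of 42 members were higher and 7 were lower past 2-fold, against 15.7% and 20.0% of all genes, and 6 Mmp genes were higher. With 1 FPKM in both libraries, 1 Mmp and 2 Adamts genes were higher, against 11.3% of all genes. With 10 FPKM in at least 1 library, 7 of 14 members were higher and 2 were lower, against 15.1% and 16.3% of all genes. Of the 7, 1 was an Mmp and 1 an Adamts gene. A 4-fold threshold left 9 of 25 members higher and 2 lower, against 4.32% and 5.14% of all genes. Of the 9, 3 were Adamts genes, and Adamts1, Adamts5, Adamts15 and Timp4 fell inside the threshold. Filters and thresholds change which members are counted and not their ratios, and a pseudocount shrinks the ratios of low genes most. Scaling to the 75th percentile moved all log2 ratios by 0.05, and scaling to the sum without the most abundant genes by -0.01. Both kept 12 members higher and 3 lower. Of all genes, 14.5% were higher and 16.9% lower under the first scaling, and 13.4% and 18.3% under the second. Centring on the median of all genes gave the same member counts, against 15.0% higher and 16.6% lower of all genes. Adamts14 was then at a log2 ratio of 0.998, just under the threshold.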

Other observations

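Genes near these families that the symbol rule leaves out were also measured. Papln, papilin, a matrix protein built like the ADAMTS-like proteins, was at 4.99 FPKM in Med1fl/fl and 1.15 in csMed1-/- heart (ratio 0.231), the opposite side to Adamtsl2 and Adamtsl5. Thsd4, also counted with the ADAMTS-like proteins, was at 0.875 and 0.796 FPKM, under 1 FPKM in both libraries. The AP-1 gene Fosl1 was at 0.0151 FPKM in the control pool and 0.425 in the knockout pool, and Adam8, a protease of leukocytes, was at 0.123 and 0.840 FPKM, both under the filter. These values were chosen after they were seen and have no replicate.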
